A study of Drosophila melanogaster with 6 samples.

Results

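The nuclear genes of oxidative phosphorylation encode most subunits of the respiratory chain and of ATP synthase. In S2R+ cells, 244 of 29142 sites listed from m6A mapping were given to them. These lay in 54 of the 92 genes that meet the name rule. A listed site is a position called from sequence tags, and is not in itself a methylated A. The rule took every listed site whose gene carries a current symbol beginning with ND-, SdhA, SdhB, SdhC, SdhD, UQCR, RFeSP, Cyt-c, COX or ATPsyn. Most of the 54 genes stood in the lists under an older name, and 28 of them under a CG number. Of the 92 genes, 67 are subunit genes and 25 are duplicate copies of a subunit gene, marked by an L in the symbol.

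Electrons from NADH enter the chain at complex I and those from succinate at complex II, pass through ubiquinone to complex III, and travel on cytochrome c to complex IV, where oxygen is reduced. Complexes I, III and IV pump protons out of the mitochondrial matrix, and complex V, the ATP synthase, makes ATP as they flow back. A few core subunits are encoded by mitochondrial DNA, and the genes described here encode the others, whose proteins are imported after translation in the cytosol.

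The samples were 6 libraries of S2R+ cells, a Drosophila melanogaster line grown in culture without specific treatment. From poly(A) RNA that had been fragmented, 4 libraries were made by crosslinked immunoprecipitation (IP) with an anti-m6A antibody of Synaptic Systems, 1 by the same IP without crosslinking and 1 from fragmented mRNA as input. In miCLIP the crosslinked antibody leaves a mark on the cDNA, either a C-to-T change at the C next to a methylated A or a stop of reverse transcription, called a truncation. The deposited lists hold 6225 C-to-T sites and 22917 truncation sites, each combined over the IPs that share it, so no spread between replicates can be given. The 2 control libraries are not analysed here, and positions are those of dm6.

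Oxidative phosphorylation genes carried listed sites widely, but the sites were nearly all truncations. Exonic sites lay in 52 of the 92 genes (56.5%), against 27.1% of 13968 nuclear protein-coding genes. Their 234 truncation sites made up 1.02% of that list, and their 10 C-to-T sites 0.161% of the other. Within exons, C-to-T sites were 10 of 226 member sites (4.42%, Wilson 95% interval 2.42 to 7.95%), against 23.0% of all exonic sites in nuclear protein-coding genes. All Wilson intervals given here cover counting error only, and sites of a gene share its mRNA, so no p-value is given over sites. Site lists do not give mRNA abundance, and its part in these counts was not tested.

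Complex V held 85 of the 244 sites (34.8%) and complexes I and III 61 each (25%), but those of complex I were spread over 24 genes and those of complex III over 7. ATPsyngamma, ATPsynbeta, ATPsynC, Cyt-c1, UQCR-C1 and UQCR-C2 together held 90 sites, 36.9% of the total, while 11 genes had 1 site each. These 6 genes were also the members with 10 or more exonic truncations, 11.5% of the 52 genes with an exonic truncation against 15.2% of all such genes. No duplicate copy had a site, 0 of 25, whereas 54 of the 67 subunit genes did. Many copies of this kind are known to be used in the testis. The sources do not say whether reads that fit both a gene and its copy were kept.

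**Figure D1:**
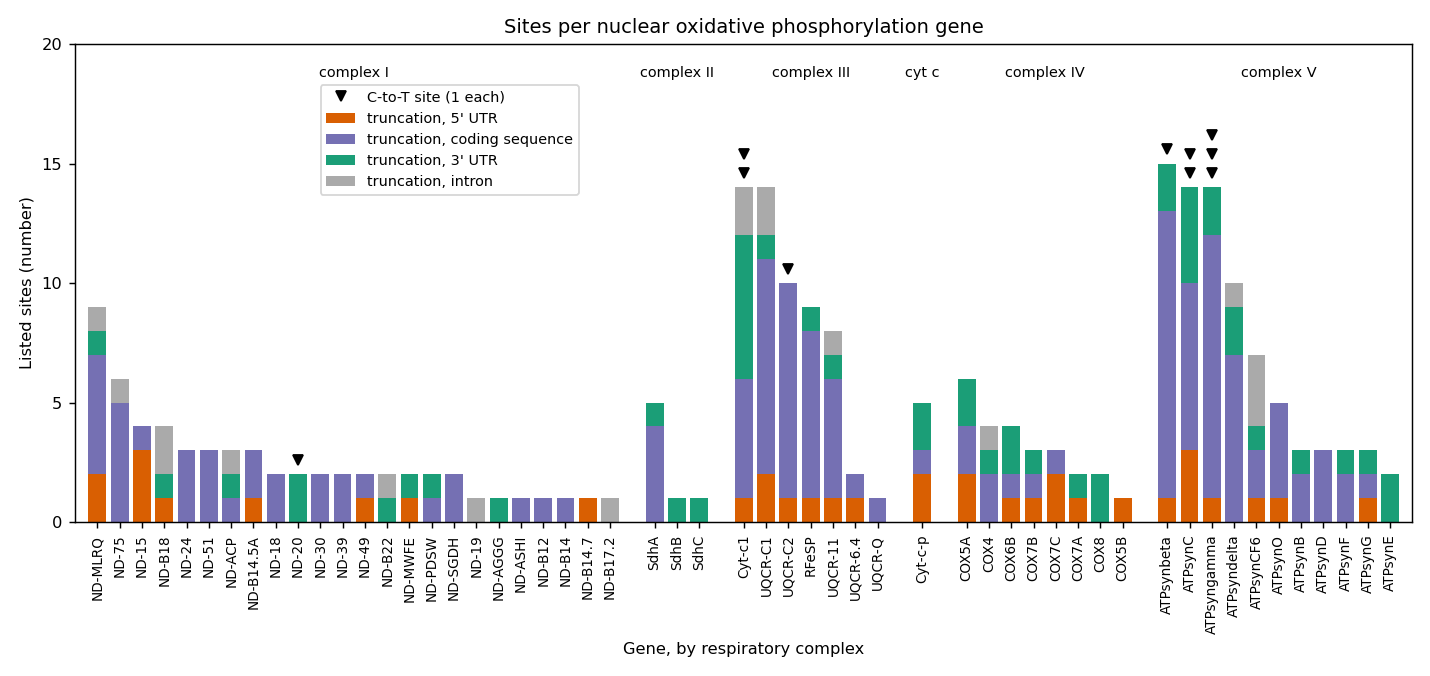
Number of listed sites in each of the 54 genes with a site, grouped by respiratory complex; bars stack truncation sites by transcript part and each black triangle is 1 C-to-T site. The 6 tallest bars belong to complexes III and V, and the 24 complex I genes with a site have at most 9 each.

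The mRNAs are short, and their truncations were more numerous per kb of mRNA. Members with an exonic site had a median mRNA of 830 nt, against 2426 nt for all genes with an exonic site. Both sets had a median of 3 exonic truncations per gene. The median density, exonic truncations over the length of the canonical transcript, was 2.92 per kb in members and 1.23 per kb in all genes. These are genes with an exonic site, and among them even a lone site on a short mRNA gives a high density. Neighbouring truncations on member mRNAs lay a median of 97 nt apart (159 gaps), and on all mRNAs 86 nt (13926 gaps). These medians pool the gaps of all genes, so genes with many sites weigh more in them. The density is a median over genes, so density and spacing are not directly comparable.

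Complex I takes electrons from NADH through its flavin and iron-sulphur clusters to ubiquinone. Of its 34 subunit genes, 24 had a site, 22 of them in exons, and 10 had none. Its 52 exonic truncations came to 2.17 per gene with a site, with 33 in coding sequence, 10 in the 5' UTR and 9 in the 3' UTR. The median peak height of its 60 truncations, introns included, was 10.9 tags (6.44 to 29.2), where the peak height is the number of tags that stop at the site as the authors' caller gave it. This was the lowest median of the 6 groups in height, but the order turned when each height was divided by its null value, the null height that the deposited list gives for that site. The median of that ratio was 17.3 in complex I, 14.9 in complex II, 11.9 in complex III, 10.3 for cytochrome c, 13.3 in complex IV and 10.7 in complex V. Complex I was then the highest, and the ranges of the groups overlapped on both scales.

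ND-MLRQ, whose mammalian homologue NDUFA4 has been placed in complex IV, led with 9 truncations, 8 of them on its 538 nt of exon and 1 in an intron. Its density, 14.9 exonic truncations per kb, was the highest among the members. A cluster in the coding sequence held heights of 19.7, 21.3 and 29.2 tags at 54, 90 and 93 nt from the first base of the start codon, all at T. ND-75, the homologue of the mammalian iron-sulphur subunit NDUFS1, had 5 coding truncations between 8.5 and 12 tags and 1 in an intron. The coding sequence of ND-75, 2196 nt, thus carried as many truncations as that of ND-MLRQ, 252 nt.

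ND-15, the homologue of mammalian NDUFS5, was the complex I gene with the most 5' UTR sites. Its 5' UTR held truncations at A of 24.3 and 21.4 tags, both found in all 4 IPs, and 1 at C of 13 tags. ND-B18, the homologue of mammalian NDUFB7, had a 5' UTR truncation at A of 18 tags, a 3' UTR truncation at C of 11.3 tags and 2 intron sites. The authors labelled the first of these as 3' UTR, and likewise a truncation of ND-MLRQ placed here in the 3' UTR as 5' UTR. ND-B14.5A, the homologue of mammalian NDUFA7, had 3 truncations of 9, 10 and 17.3 tags. ND-20, the homologue of the mammalian NDUFS7 subunit that hands electrons to ubiquinone, bore the only C-to-T site of complex I, described below, and 2 truncations at A in its 3' UTR of 18.8 and 14.9 tags.

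Complex II, succinate dehydrogenase, links the citric acid cycle to the chain. It had 7 truncations in 3 of 4 subunit genes, 4 in coding sequence and 3 in the 3' UTR, and no C-to-T site. SdhA, the flavoprotein that oxidises succinate, had 5 truncations between 10 and 13.3 tags. SdhB, the iron-sulphur subunit, had 1 of 9.5 tags, and SdhC, a membrane anchor, had 1 at A in its 3' UTR of 28.1 tags, found in all 4 IPs. No site was listed for SdhD, the other anchor.

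Complex III passes electrons from ubiquinol to cytochrome c. Of its 8 subunit genes 7 had a site, UQCR-14 being without one, and 53 exonic truncations came to 7.57 per gene with a site. Their distribution was 37 in coding sequence, 7 in the 5' UTR and 9 in the 3' UTR. The median height of its 58 truncations was 14.7 tags (7.17 to 33.4).

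Cyt-c1, the haem subunit that delivers electrons to cytochrome c, was the complex III gene with the most sites, 16. Its 6 truncations in the 3' UTR ranged from 16 to 25.8 tags, and its 5 coding truncations from 7.17 to 14.7 tags, so the ranges did not overlap in height, although they did once heights were divided by their null values. UQCR-C1 and UQCR-C2, the core proteins, showed the other arrangement, with 9 coding truncations each and 1 and 0 in the 3' UTR. UQCR-C1 had heights of 11 to 17.3 tags and UQCR-C2 of 10 to 33.4 tags. RFeSP, the Rieske iron-sulphur protein, had 9 truncations with 7 in coding sequence and heights of 9.75 to 20 tags. UQCR-11, the homologue of the mammalian hinge protein UQCRH, had 8 truncations of 11 to 20.5 tags, 1 of them in an intron.

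Cytochrome c carries electrons from complex III to complex IV. Cyt-c-p, the form used in most tissues, had 5 truncations of 12.5 to 23.1 tags, with 2 in the 5' UTR, 1 in coding sequence and 2 in the 3' UTR. No site was listed for Cyt-c-d, the form known from the testis.

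Complex IV, cytochrome c oxidase, had sites in 8 of 8 subunit genes. Its 24 exonic truncations numbered 8 in the 5' UTR (33.3%), 7 in coding sequence (29.2%) and 9 in the 3' UTR (37.5%). Shares expected from part lengths were not computed by complex. No C-to-T site was listed. The median height of its 25 truncations was 12.3 tags (7 to 18.2). COX5A had 6 truncations of 12.3 to 18.2 tags, with 2 in each transcript part. COX4 had 4 of 12.3 to 16.8 tags and COX6B 4 of 7 to 15.5 tags, and COX7B and COX7C had 3 each of at most 14.8 tags. These are nuclear-encoded subunits around the catalytic core, which is encoded by mitochondrial DNA.

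Complex V had a site in 11 of 11 subunit genes under the rule and the most sites of any group, 79 truncations and 6 C-to-T sites. Of its 75 exonic truncations 51 lay in coding sequence, 8 in the 5' UTR and 16 in the 3' UTR. The median height of all 79 was 14.9 tags (8 to 135). ATPsyngamma, the central stalk that turns inside the catalytic head, had 17 sites, and its 14 truncations had a median of 23.2 tags (17 to 46.7), with 7 of them found in all 4 IPs. The lowest of these lay above the median height of each of the 6 groups. Its null values were also the highest of the members, 2.48 to 3.43 against a member median of 1.04, and the median ratio of height to null was 7.48, below the 13.3 of all members.

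ATPsynbeta, the catalytic subunit, had 15 truncations, of which 14 lay between 8.5 and 35.3 tags. The remaining one, a truncation at G at position 1034372 of chromosome 4 (+ strand), had a height of 135 tags and was found in 4 IPs and by 3 aligners. It lay in coding sequence, 41 nt before the last base of the stop codon, and ranked 178 of 22917 in the whole list. ATPsynC, which forms the rotating ring, had 7 coding truncations of 13.8 to 21.8 tags and 4 in the 3' UTR of 16.3 to 35 tags. ATPsyndelta, of the central stalk, had 10 truncations of 10.5 to 18.5 tags and ATPsynCF6, of the peripheral stalk, 7 of 12.5 to 25.9 tags.

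**Figure D2:**
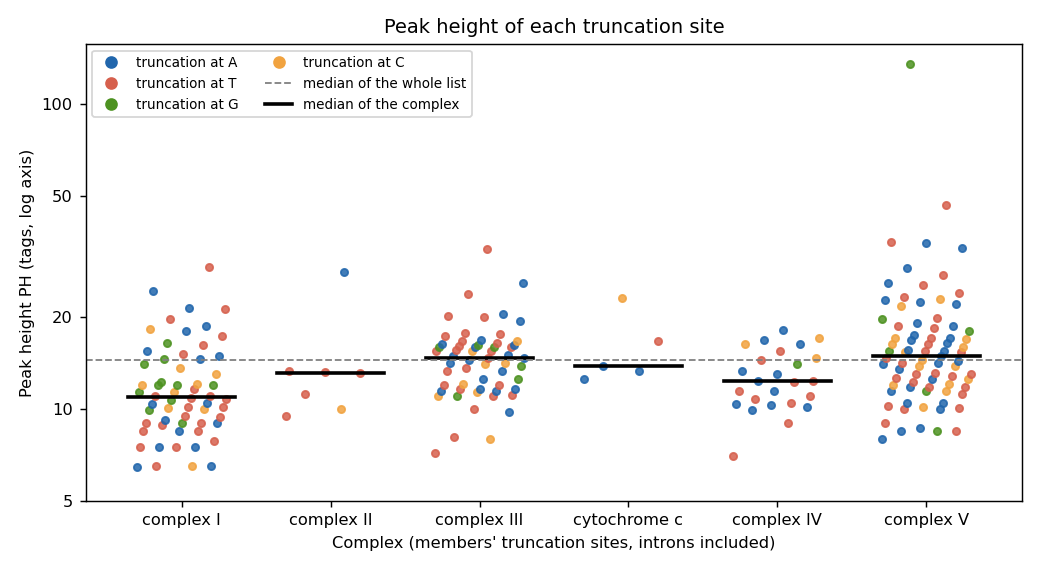
Peak height PH in tags (log axis) of each of the 234 member truncation sites by complex, coloured by the base at the site; the black bar is the median of the complex and the dashed line the median of the whole list, 14.5 tags. Complexes III and V sit around the list's median and complex I below it at 10.9 tags, an order that turns when heights are divided by their null values (medians of 11.9, 10.7 and 17.3), and the G site of ATPsynbeta at 135 tags stands alone.

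Member truncations had a median height near that of the list and few very high values. Their median was 13.3 tags (quartiles 11 and 16.5), against 14.5 tags (10.1 and 23.3) over the whole list. The median ratio of height to null was 13.3 in members and 16.8 in the list. A height of 41 tags or more was reached by 2294 sites of the list (10.0%) and by 2 of the 234 member sites (0.855%). They were the G site of ATPsynbeta and a T site in the coding sequence of ATPsyngamma (3R, position 29747992, - strand) of 46.7 tags. Sites found in 2 IPs had a median of 11.5 tags in members and in the whole list, and those found in 4 IPs 15.6 tags in members and 23.6 in the list. The sources do not give the way heights were combined over IPs.

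By transcript part, median heights differed most in the 5' UTR. The median there was 12.8 tags in members and 18.7 in all genes. In coding sequence the medians were 13 and 12.7 tags, and in the 3' UTR 14.7 and 14.5 tags. Truncations at A in the 5' UTR had a median of 14.6 tags in members (14 sites) and 20.3 tags in all genes. The ratio of height to null was lower in members in each part, with medians of 16.2 and 18.3 in the 5' UTR, 13 and 15.2 in coding sequence and 13 and 14 in the 3' UTR.

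The positions differed from those of the lists as a whole in the same way. Of 216 exonic member truncations 35 lay in the 5' UTR (16.2%, 11.9 to 21.7%), 133 in coding sequence (61.6%, 54.9 to 67.8%) and 48 in the 3' UTR (22.2%, 17.2 to 28.2%). Over all 19646 exonic truncations these shares were 40.0%, 46.2% and 13.9%, each outside the members' interval. Part lengths within the same genes would give members 17.8%, 54.6% and 27.5%, so the ratio of observed to expected was 0.909 in the 5' UTR, 1.13 in coding sequence and 0.807 in the 3' UTR. For all genes the ratios were 2.34, 0.795 and 0.559. ATPsyndelta and UQCR-11 have long 3' UTRs over all isoforms, 3232 of 3817 nt and 1197 of 1613 nt. These raise the members' expected 3' UTR share, and ratios without them were not computed. A 5' UTR truncation was present in 26 of the 52 members with an exonic truncation (50%), against 61.1% of all such genes. The complexes differed, leaving aside complex II and cytochrome c with few sites. Complex IV had 33.3% of its truncations in the 5' UTR and 29.2% in coding sequence. In complexes I, III and V these shares were 10.7 to 19.2% and 63.5 to 69.8%.

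The base at the site differed too, mainly in the 5' UTR. A was the base at 76 of the 216 exonic member truncations (35.2%, 29.1 to 41.8%), against 52.1% of all. T stood at 94 (43.5%, against 33.8%), C at 29 (13.4%, against 6.71%) and G at 17 (7.87%, against 7.43%). In the 5' UTR the share of A was 14 of 35 in members (40%, 25.6 to 56.4%) and 73.2% in all genes. In coding sequence it was 33.8% and 37.4%, and in the 3' UTR 35.4% and 39.7%, where the members' intervals (26.3 to 42.2% and 23.4 to 49.6%) include the value of all genes. Truncations at A had a 5' UTR ratio of observed to expected of 0.918 in members and 3.07 in all genes, and truncations at T one of 0.84 and 1.45. Among the complexes the share of A ran from 26.9% in complex I (14 of 52) to 45.8% in complex IV (11 of 24), leaving aside complex II and cytochrome c with 7 and 5 sites. No intervals were computed for these shares. ND-MLRQ alone gave 8 of the 52 complex I sites, and 0 of them were at A.

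**Figure D3:**
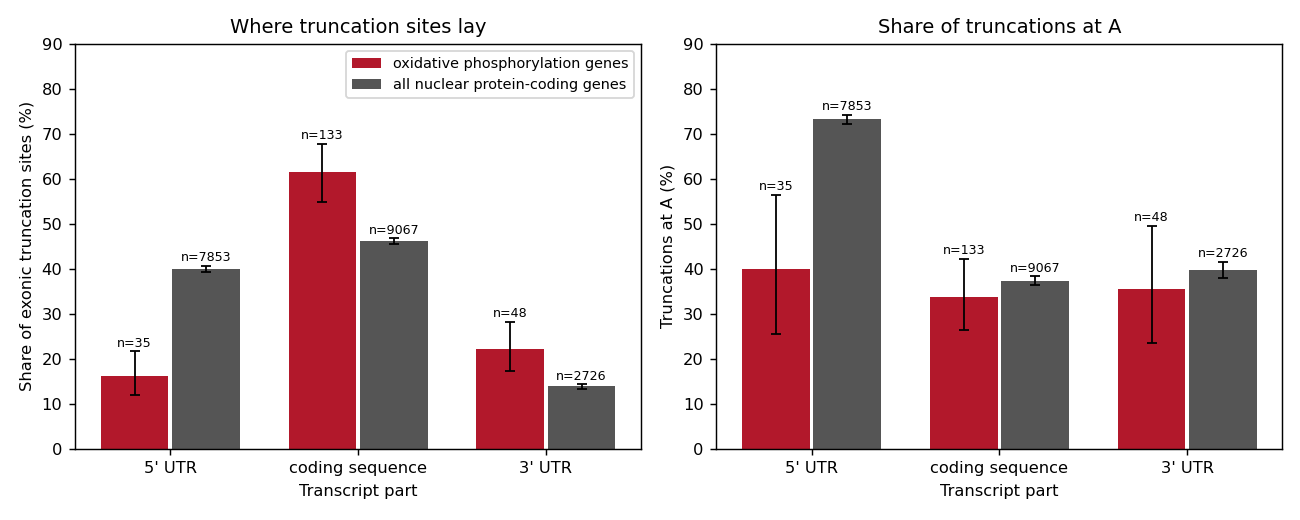
Left, share of exonic truncation sites (%) in each transcript part; right, share of the truncations of that part that were at A (%). Red bars are the oxidative phosphorylation genes and grey bars all nuclear protein-coding genes, members included, with Wilson 95% intervals (counting error only); the red 5' UTR bars, 16.2% and 40%, are below the grey ones, 40.0% and 73.2%.

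On the canonical transcripts, which placed 211 of the 216 sites, truncations lay near the stop codon more often than the length of that window gives. Within 50 nt of the stop codon stood 36 sites in 27 genes (17.1%, against 9.87% expected from length, a ratio of 1.73), while the ratio over all genes was 1.09. The ratio was 1.79 for truncations at A and 1.89 for those at T in members, and 0.886 and 1.36 in all genes. Within 50 nt of the start codon stood 26 sites, a ratio of 1.25 against 1.63 in all genes, and within 50 nt of the transcription start 10 sites, a ratio of 0.949 against 1.3. Along the coding sequence 42, 46 and 45 of 133 sites lay in its first, middle and last stretch of equal length. These shares, 31.6%, 34.6% and 33.8%, were near those of all genes, 36.1%, 31.1% and 32.8%.

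**Figure D4:**
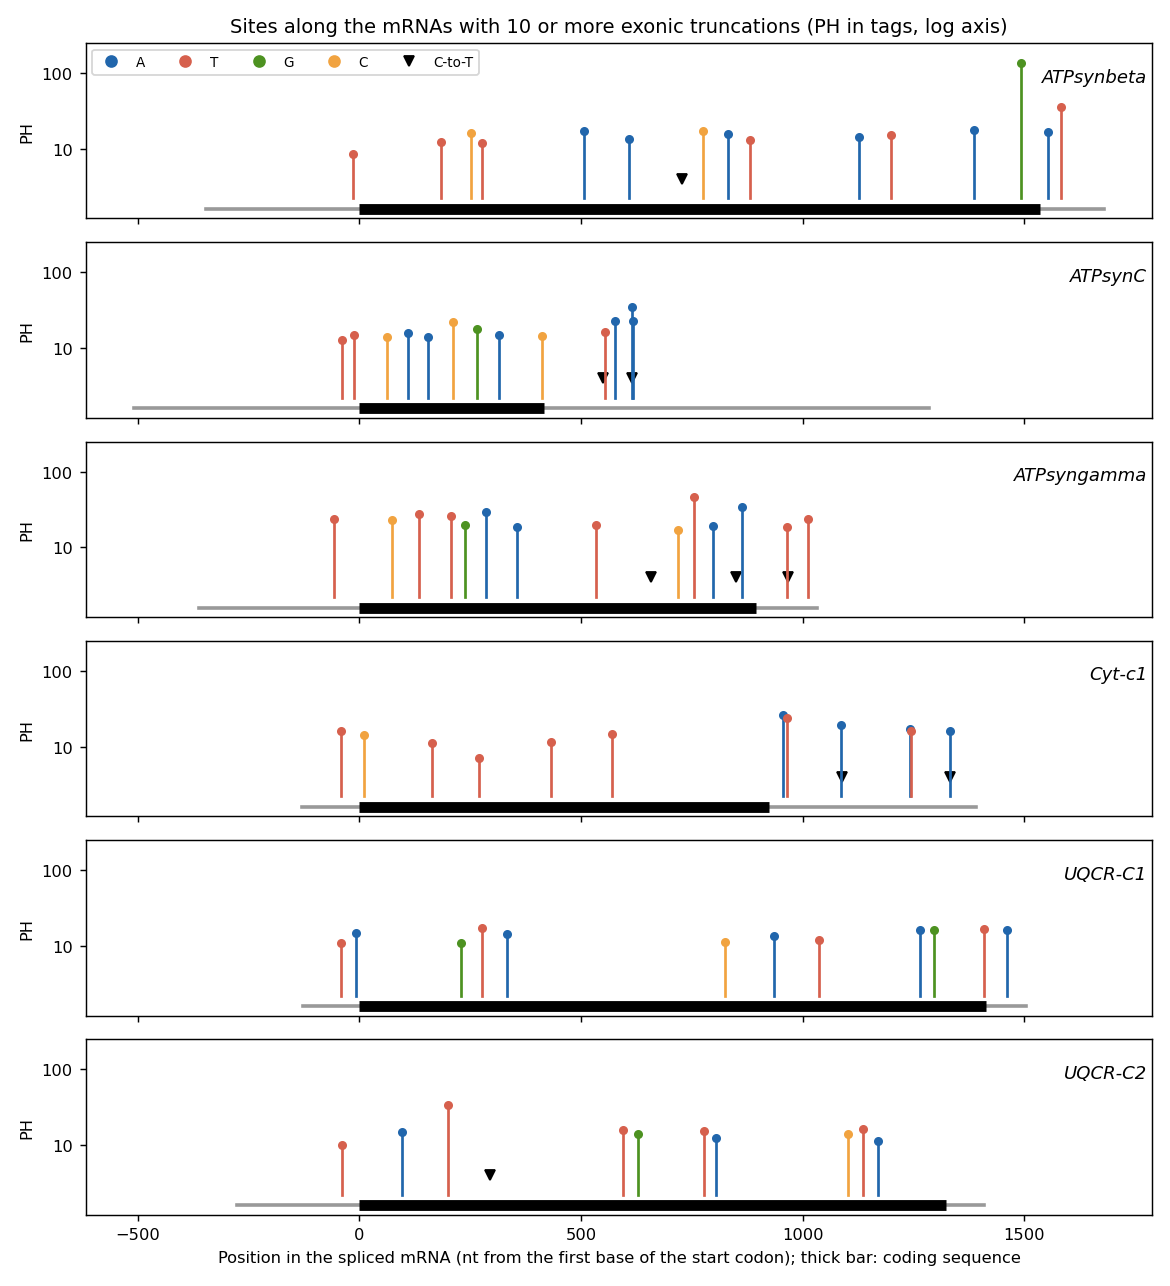
Sites along the 6 mRNAs with 10 or more exonic truncations; the horizontal axis is the position in the spliced mRNA in nt from the first base of the start codon, the vertical axis PH in tags (log axis), stems are truncations coloured by base, triangles are C-to-T sites drawn at a fixed height and the thick bar is the coding sequence. Sites run through the coding sequences, few stand in the 5' UTRs, and the triangles of Cyt-c1 and ATPsynC stand in the 3' UTRs.

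The 10 C-to-T sites lay in 6 genes, 3 in ATPsyngamma, 2 in ATPsynC, 2 in Cyt-c1 and 1 each in ATPsynbeta, UQCR-C2 and ND-20. Those 6 were 6.52% of the 92 genes, against 9.27% of all nuclear protein-coding genes, and 11.5% of the 52 members with an exonic truncation, against 34.1% of all such genes. Among genes with 10 or more exonic truncations, 5 of 6 members (83.3%) and 86.8% of all genes had a C-to-T site. None of the 10 lay in a 5' UTR, which allows a share of up to 27.8% by the Wilson interval (62.3% over all genes), while 4 lay in coding sequence and 6 in the 3' UTR. Of the 10, 8 were found in 2 IPs, 2 in 3 IPs and 0 in 4 IPs, whereas over all genes 35.0% of the exonic ones were found in 4.

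They were also covered by fewer tags than the list as a whole. Unique tags covering the position numbered a median of 137 (91.7 to 212), against 274 in the list, and the number with the change a median of 6.86 (4.5 to 9), against 8.17. The converted share, a mean over the IPs that gave the site, ran from 3.55 to 8.13% with a median of 4.52%, against 3.43% in the list.

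Where an A directly upstream of the changed C was itself a truncation site, the positions were called a pair. The pairs numbered 3 of 10 in members (30%, 10.8 to 60.3%), and the share over all exonic C-to-T sites was 34.4%. All 3 stood in the 3' UTR, 3 of 6 there (50%, 18.8 to 81.2%), an interval that includes the 19.6% of all genes. Cyt-c1 held 2 of them in its last exon on 3L (+ strand). The first, at position 5362495, had 7.22 of 150 tags converted (4.70%, 3 IPs) and a truncation of 19.4 tags at the A before it. The second, at position 5362740, had 5.33 of 91.7 tags converted (6.52%, 3 IPs) and a truncation of 16 tags. The third pair was in the last exon of ATPsynC at position 31216814 of 3R (- strand), with 7.5 of 212 tags converted (3.55%, 2 IPs), a truncation of 35 tags at the A upstream and another at the A downstream of 22.5 tags.

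The other 7 C-to-T sites had no A truncation directly upstream. In the 3' UTR of ATPsyngamma (3R, position 29747779) 4.62% of tags were converted and the nearest truncation stood 2 nt upstream at a T. Its coding sites at 29747896 and 29748088 had 4.42% and 4.25% converted, with the nearest truncation 12 and 60 nt downstream. ATPsynC had a further 3' UTR site with 4.35% converted and a truncation at T 4 nt downstream, and ATPsynbeta a coding site (chromosome 4, position 1033606) with 3.56% converted and a truncation at C 47 nt downstream. UQCR-C2 had the highest converted share of the 10, 8.13% at coding position 16584894 of 3L, 93 nt from the nearest truncation. ND-20 had 9 of 135 tags converted (6.68%) in the 3' UTR on X at position 15985950, 47 nt from the nearest truncation.

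Introns held 18 member truncations and no member C-to-T site. They were 7.69% of the members' truncations, against 8.67% over nuclear protein-coding genes. Of the 18, 17 lay within 10 nt of the 3' splice site (94.4%, against 40.8% of all intronic truncations). Of these, 6 lay on the last base of the intron, all at G (33.3% of the 18, against 13.7% of all intronic truncations). Another 7 lay on the third base from the intron's end, all at C, for which no share over all genes was computed. The bases that introns carry at these positions were not counted, so the bases are given as description only. The 18 sites were spread over 13 genes, with 3 in ATPsynCF6 and 2 each in Cyt-c1, UQCR-C1 and ND-B18. ND-19 and ND-B17.2, named after their values were seen, had no other site. Of the 18, 17 were given by 1 aligner alone, 14 by Novoalign, 3 by BWA and 0 by STAR, against 54.2% of all intronic truncations given by 1 aligner and 23.1% of the members' exonic truncations. The part of the aligners in these positions was not tested.

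Genes that work with the chain but carry other symbols were counted from fixed lists. Their counts include intron sites, and the share of all nuclear protein-coding genes with an exonic site was 27.1%. Of 5 further subunits, 3 had sites. The ATP synthase alpha subunit blw had 25 sites, more than any gene under the rule, with 23 truncations, 14 of them coding, and 2 C-to-T sites. One of these lay in the 5' UTR with an A truncation directly upstream (3.93% converted, 3 IPs) and the other in coding sequence (10.6%, 4 IPs). The cytochrome oxidase subunits levy and cype had 3 and 1 truncations, while ox and sun had none. Of 7 assembly factors, Surf1 and Cox17 had 2 sites each, with 1 C-to-T site in Surf1, and the other 5 none.

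Of 5 carriers and channels of the mitochondrial membranes, 4 had sites. The ADP/ATP translocase sesB had 29, with 5 C-to-T sites, 15 coding and 8 3' UTR truncations and none in the 5' UTR. The phosphate carrier Mpcp2 had 10, the outer membrane channel porin 9 with 1 C-to-T site, and the translocase Ant2 4. Of 11 annotated citric acid cycle genes, 10 had sites, 46 truncations and 2 C-to-T sites in all, of which 30 truncations were coding and 2 in the 5' UTR. Ogdh, of the oxoglutarate dehydrogenase complex, and the succinyl-CoA ligase subunit ScsbetaA had 9 each, and kdn, citrate synthase, and the ligase subunit Scsalpha1 had 7 each with 1 C-to-T site. Idh3a had 5, Fum1 and Mdh2 4 each and mAcon1, Idh3g and ScsbetaG 1 each.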

How the data were processed

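Per the labels, m6A was mapped by miCLIP in 4 IPs, with 1 non-crosslinked IP and 1 fragmented mRNA library as controls; no label tells whether separate cultures were used. The tools named in the submitters' processing notes are STAR 2.4.2a, BWA, Novoalign, Bowtie 1.1.2 and cutadapt 1.8, with the build dm6, and their roles are not stated there. Per the file headers, a C-to-T site has k unique tags, m converted tags and their ratio as a percent, and a truncation site has a peak height, its null value and a base. The authors list each value for 3 aligners and for sites shared by 2, 3 or 4 IPs; the mean over aligners and the highest number of IPs were used here.

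Older gene names were resolved with synonyms, by chromosome, strand and position for the 2 that several genes have had. Sites were placed on Ensembl release 115 (BDGP 6.54), counting a position as 5' UTR, coding sequence, then 3' UTR. The part label was the same as the authors' for 242 of 244 sites. Expected shares are the part lengths of each site's own gene, averaged over sites. Of the exonic sites, 1 in COX6B also lies in an exon of CG18809, and 3 truncations in exons of ND-MNLL, a gene named after its values were seen, went to CG45089 in the authors' table and are not members. Scripts ran in Python 3.11.15 and were tested on simulated sites.

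Members and lists were chosen with earlier results of these data known. Named genes are those with a C-to-T site, up to 5 per complex with the most sites, those of the 10 highest truncations, members without a site in complexes with at most 5 of them, and listed pathway genes with a site; ox and sun, which have none, were named after their values were seen. Nc73EF, on the citric acid cycle list, has no annotated gene of that symbol and may be the same gene as Ogdh, which is listed separately. Depth is known only as k at C-to-T sites. Alternatives varied support by IPs and aligners, the score, merging, gene assignment, the part label, membership and the leading gene.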

Additional observations from a re-analysis of the deposited data

How the results depend on the processing

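Of 56 alternative values, 41 stayed within their counting interval or, for a count of sites or genes, within 1.5 times, and 15 moved further. Reversals were not scored. With sites found in all 4 IPs alone, C-to-T sites fell from 10 to 0, truncations from 234 to 55, genes from 54 to 31 and pairs from 3 to 0. The coding share then became 68% and the 3' UTR share 16%, and the median height 15.6 tags. With sites given by all 3 aligners, 2 C-to-T sites, 126 truncations and 1 pair were left, the coding share was 68.3% and the median height 14.5 tags; the pair value was chosen after seeing the data. With sites at or above their list's median, 8.17 converted tags or 14.5 tags in height, 1 C-to-T site, 100 truncations and 25 genes were left. These 3 filters leave fewer sites by construction. The share of A ran from 35.2 to 41.1% and the 5' UTR share from 11.9 to 16.8% over the alternatives run. Adding the subunits with other symbols gave 12 C-to-T sites and 263 truncations in 58 genes.

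No paired analysis was possible because the lists combine the IPs and hold no value per library, and leaving out an IP could not be run for that reason. The DRACH motif was not run, since no genome sequence was used here. Depth at truncation sites and mRNA abundance are unknown, so no limit can be set for a gene without a site.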
